A study of Caenorhabditis elegans with 8 samples.

Results

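The genes described here encode the lysozymes, saposin-like proteins and antimicrobial peptides of the nematode Caenorhabditis elegans. They are all genes of the count table whose symbol starts with lys-, ilys-, spp-, cnc-, abf-, fip- or fipr-, which gave 99 of 46093 genes, each annotated as protein-coding: 10 lys, 6 ilys, 30 spp, 11 cnc, 6 abf, 7 fip and 29 fipr genes. Poly(A) RNA of whole worms was sequenced from 4 libraries of a strain labelled atf-6 and 4 libraries of the wild-type strain N2. Both strains were grown from synchronized first-stage larvae on OP50-1 bacteria for 72 h at 20 °C and taken as day 1 adults, with about 1000 worms pooled per replicate, and the labels describe the 4 replicates as independent. The atf-6 label names no allele, and no further mutation or treatment is given for either strain. ATF-6 is a transcription factor held in the membrane of the endoplasmic reticulum (ER) that acts in the unfolded protein response. The series title ties it to lifespan and to calcium exchange between the ER and mitochondria, so the comparison asks how transcript levels, here those of secreted defence genes, differ between the strains.

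C. elegans has no adaptive immunity and no dedicated phagocytes, and it meets microbes mainly in the gut, which it fills by eating bacteria, and at the epidermis. Lysozymes cleave the peptidoglycan of bacterial walls. The lys genes encode lysozymes related to those of protists and the ilys genes encode the invertebrate type. The spp genes encode saposin-like proteins, of which the caenopores make holes in bacterial membranes. The abf genes encode small cysteine-rich antibacterial factors. The cnc genes (caenacins) encode glycine-rich peptides of the epidermis, and the fip (fungus-induced protein) and fipr (fip-related) genes were named for induction by fungal infection. All of these products enter the secretory pathway through the ER.

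Total estimated counts were 14273326 to 19396448 per atf-6 library and 12664222 to 21698298 per wild-type library. The atf-6 transcript had 16.04, 15.1, 14.7 and 14.1 CPM (counts scaled to library size, here with TMM factors) in atf-6 libraries, against 10.8, 12.8, 13.2 and 12.5 CPM in wild-type libraries. It was higher in each atf-6 library and did not pass (log2 fold change 0.28, SE 0.0911, edgeR adjusted p = 0.346), so its level does not check the strain label. Over all genes, the quasi-likelihood test of edgeR with a threshold of 0.05 on the adjusted p called 101 of 12375 (0.816% of those tested), 88 of them higher (0.711%) and 13 lower (0.105%) in atf-6. No gene of the marker lists for intestine, epidermis and pharynx was at 0 in all libraries. Of these lists, 0 of 27 tested intestine genes, 0 of 18 epidermis genes and 0 of 15 pharynx genes passed, and 6 (22.2%), 3 (16.7%) and 0 of them had an unadjusted p under 0.05, beside 7.0% of all tested genes. Their summed levels overlapped between the strains, at 7253 to 8465 CPM in atf-6 and 7367 to 9342 CPM in wild type for intestine. For epidermis they were 4657 to 6012 CPM in atf-6 and 4246 to 5993 CPM in wild type, and for pharynx 475 to 583 CPM in atf-6 and 435 to 585 CPM in wild type. Of 34 tested sperm genes 16 rose and 33 (97.1%) had an unadjusted p under 0.05, with a median log2 fold change of 1.13. The sum of that list was 246 to 383 CPM in atf-6, against 101 to 178 CPM in wild type. What part this sperm signal, which moves with the strain, has in the values below was not tested. Replicate 3 of each strain stood apart from the other libraries, holding the highest level of 21.6% of all tested genes in the case of atf-6 and of 24.2% in the case of wild type. In whole-worm RNA, fewer cells of a type and less RNA per cell cannot be told apart.

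Most of the RNA of these genes came from a few of them. Levels between genes are compared here in TPM, a level scaled for transcript length as well as library size. Of the 99 genes, 9 had a mean of at least 100 TPM over the 8 libraries and 32 at least 10 TPM. The highest was ilys-5 (WBGene00017691, chromosome X, 6533490 to 6536840 on the minus strand, build WBcel235), an invertebrate-type lysozyme gene, at 1341 ± 141 TPM in atf-6 and 1483 ± 38.7 TPM in wild type (SD, n = 4 each). It ranked 107th among all genes by mean TPM. Next came the saposin-like genes spp-14 at 996 ± 32.8 TPM in atf-6 and 1043 ± 46.7 TPM in wild type, and spp-17 at 938 ± 43.2 TPM in atf-6 and 963 ± 21.6 TPM in wild type. spp-5, which encodes a pore-forming caenopore of the intestine, had 702 ± 52.9 TPM in atf-6 and 685 ± 18.6 TPM in wild type. In either strain every library of ilys-5 lay above every library of spp-14, the libraries of spp-14 and spp-17 overlapped, and both genes lay above spp-5 throughout.

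**Figure D1:**
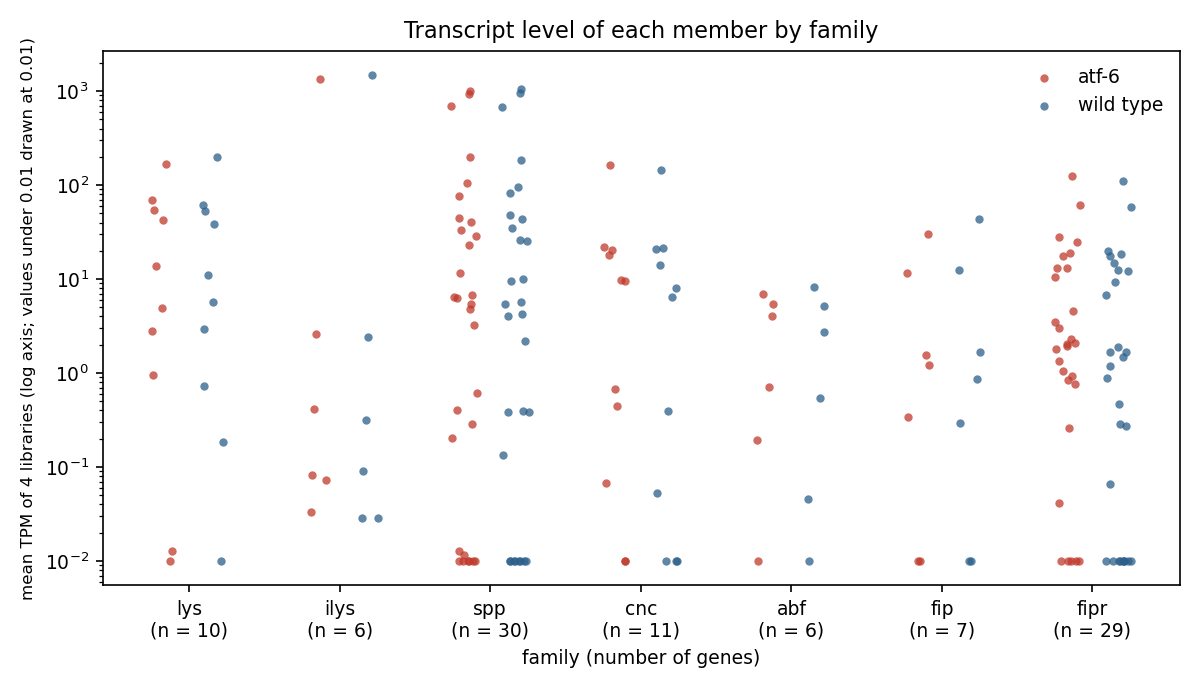
Mean TPM of 4 libraries (log axis) for each of the 99 genes by family, atf-6 left and wild type right. ilys-5 stands far above the other ilys genes, and 3 spp genes lie above 500 TPM, while each family also has members near or at 0.

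The 7 families differed in how their level was shared out. In the ilys family ilys-5 held 99.8% of the summed TPM. The next gene, ilys-4, had 2.59 ± 0.767 TPM in atf-6 and 2.40 ± 0.228 TPM in wild type. ilys-3, whose product digests Gram-positive cell walls, had 3 counts in all in atf-6 and 3 in wild type. In the lys family lys-4 led with 50.2% of the TPM, at 166 ± 24.4 TPM in atf-6 and 199.7 ± 15.8 TPM in wild type. lys-1, lys-8 and lys-7, gut lysozyme genes often used as readouts of immune signalling, followed it with 70.2 ± 17.8, 54.9 ± 7.47 and 42.5 ± 7.18 TPM in atf-6, and 61.3 ± 10.8, 52.8 ± 5.41 and 39.04 ± 5.75 TPM in wild type. The spp family was the broadest, its leading gene spp-14 holding 31.3% of the sum. cnc-8 held 66.8% of the caenacin TPM, and the best known epidermal caenacin gene, cnc-2, had 22.1 ± 3.43 TPM in atf-6 and 21.2 ± 7.73 TPM in wild type. fip-2 held 71.1% of its family and fipr-21 37.5% of its own.

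TPM of the shortest transcripts rests on very little usable length. In 28 of the 99 genes the longest effective length, the part of a transcript on which the quantifier could place fragments, was under 50 bases, 16 of them fipr, 5 cnc, 4 fip, 2 abf and 1 spp genes. abf-1, the top abf gene by TPM with 6.89 ± 2.16 TPM in atf-6 and 8.31 ± 4.32 TPM in wild type, had only 5, 4, 7 and 8 counts in atf-6 libraries, against 4, 11, 3 and 14 in wild-type libraries. By counts the leading abf gene was abf-6, with 61.4% of the family's CPM. cnc-2 has a similar limit, since most of its TPM was assigned to a transcript of 189 bases. Comparisons between the strains are therefore given in CPM.

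Summed over all 99 genes the level was 2277 ± 89.8 CPM in atf-6 and 2367 ± 146 CPM in wild type (SD, n = 4 each), a ratio of 0.962, and the libraries overlapped. By family, the lys sum was 445 ± 13.9 CPM in atf-6 and 461 ± 8.73 CPM in wild type, and the spp sum 1059 ± 63.6 CPM in atf-6 and 1066 ± 87.4 CPM in wild type. The ilys sum was 616 ± 25.9 CPM in atf-6 and 692 ± 59.1 CPM in wild type. The cnc and fipr sums were 36.6 ± 3.19 and 97.9 ± 9.26 CPM in atf-6 and 33.5 ± 1.95 and 86.8 ± 5.92 CPM in wild type. For the abf family the sums were 6.50 ± 0.328 CPM in atf-6 and 5.75 ± 1.29 CPM in wild type. In each of these 6 families the libraries of the strains overlapped. The fip family was the exception, with 16.4, 15.7, 15.9 and 16.7 CPM in atf-6 libraries, against 19.6, 23.5, 22.4 and 22.4 CPM in wild-type libraries, a ratio of 0.737. Of the fip CPM, 72.5% came from the single gene fip-2. Without fip-2 the ratio was 0.892 and the libraries of the strains overlapped. Without the most abundant gene of the family the ratio turned to 1.08 for lys, against 0.966 with lys-4. For ilys it turned to 1.10, against 0.889 with ilys-5. Since ilys-5 held 99.6% of the ilys CPM, the ilys ratio without it rests on genes of low level. These sums are a description, and no test was run on them.

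**Figure D2:**
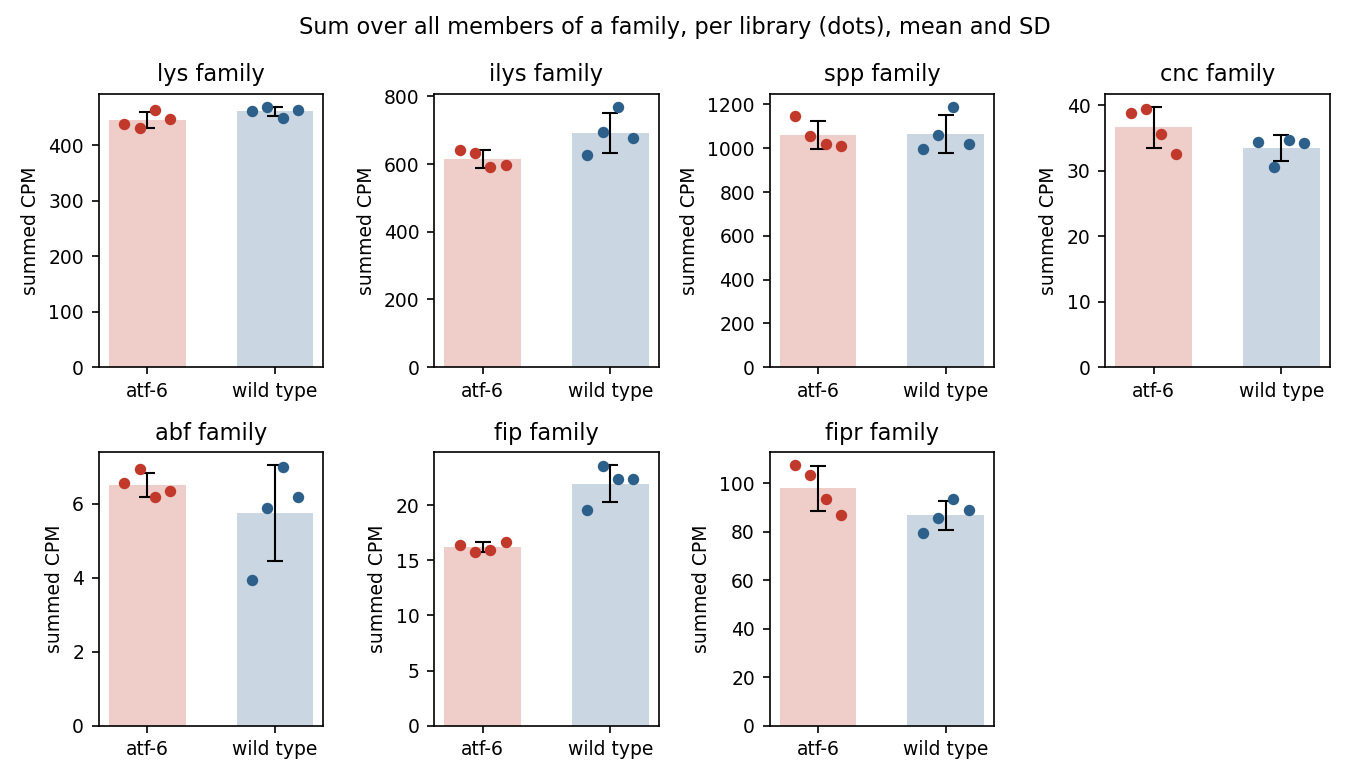
Summed CPM over all members of each family per library (dots), with bars for the mean and error bars for the SD of 4 libraries, atf-6 left and wild type right in each panel. Only in the fip panel do the dots of the strains not overlap, the atf-6 libraries lying between 15.7 and 16.7 CPM.

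Of the 99 genes, 48 had enough counts to be tested, namely 7 lys, 2 ilys, 18 spp, 6 cnc, 2 abf, 3 fip and 10 fipr genes. With edgeR's quasi-likelihood test and adjustment over all tested genes, 0 rose, 1 fell and 47 did not pass, so 2.08% of the tested members were called, beside 0.816% of all tested genes. With a single gene called, this is not a result about the members as a group. An unadjusted p under 0.05 was found for 9 members (18.8%), 6 with higher and 3 with lower levels in atf-6, beside 7.0% of all tested genes. The groups did not overlap in 5 members (10.4%), beside 5.79% of all tested genes, with atf-6 higher in 3 of them (3.77% of all genes) and lower in 2 (2.02% of all genes). The log2 fold change, atf-6 minus wild type, was above 0 in 30 of the 48 (62.5%, beside 50.7% of all tested genes), and its median was 0.09, beside 0.00191 over all tested genes.

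The families can be set side by side by the same values. The median log2 fold change was 0.035 in 7 lys genes (range -0.29 to 0.32), -0.033 in 2 ilys genes and -0.019 in 18 spp genes (range -0.59 to 0.68). It was 0.18 in 6 cnc genes (range -0.066 to 0.62), 0.27 in 2 abf genes, -0.50 in 3 fip genes (range -0.55 to -0.15) and 0.24 in 10 fipr genes (range -0.011 to 0.95). With 1 library left out the ilys median ranged from -0.098 to 0.046 and the abf median from 0.13 to 0.38. Both lysozyme and saposin-like genes thus had members on either side of 0, 4 positive and 3 negative among lys and 9 and 9 among spp. Of the others, 9 of 10 fipr and 5 of 6 cnc genes were positive and 3 of 3 fip genes negative. The fip median is the value of the low-level fip-6, whose 95% interval ran from -1.45 to 0.45. The fip gene fip-4, too low to test, had 10 counts in atf-6 and 5 in wild type. The spread between libraries of 1 strain was also unequal, with a median SD of log2 CPM of 0.102 in fip, 0.153 in lys, 0.198 in spp, 0.203 in ilys, 0.245 in cnc, 0.296 in fipr and 0.297 in abf.

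**Figure D3:**
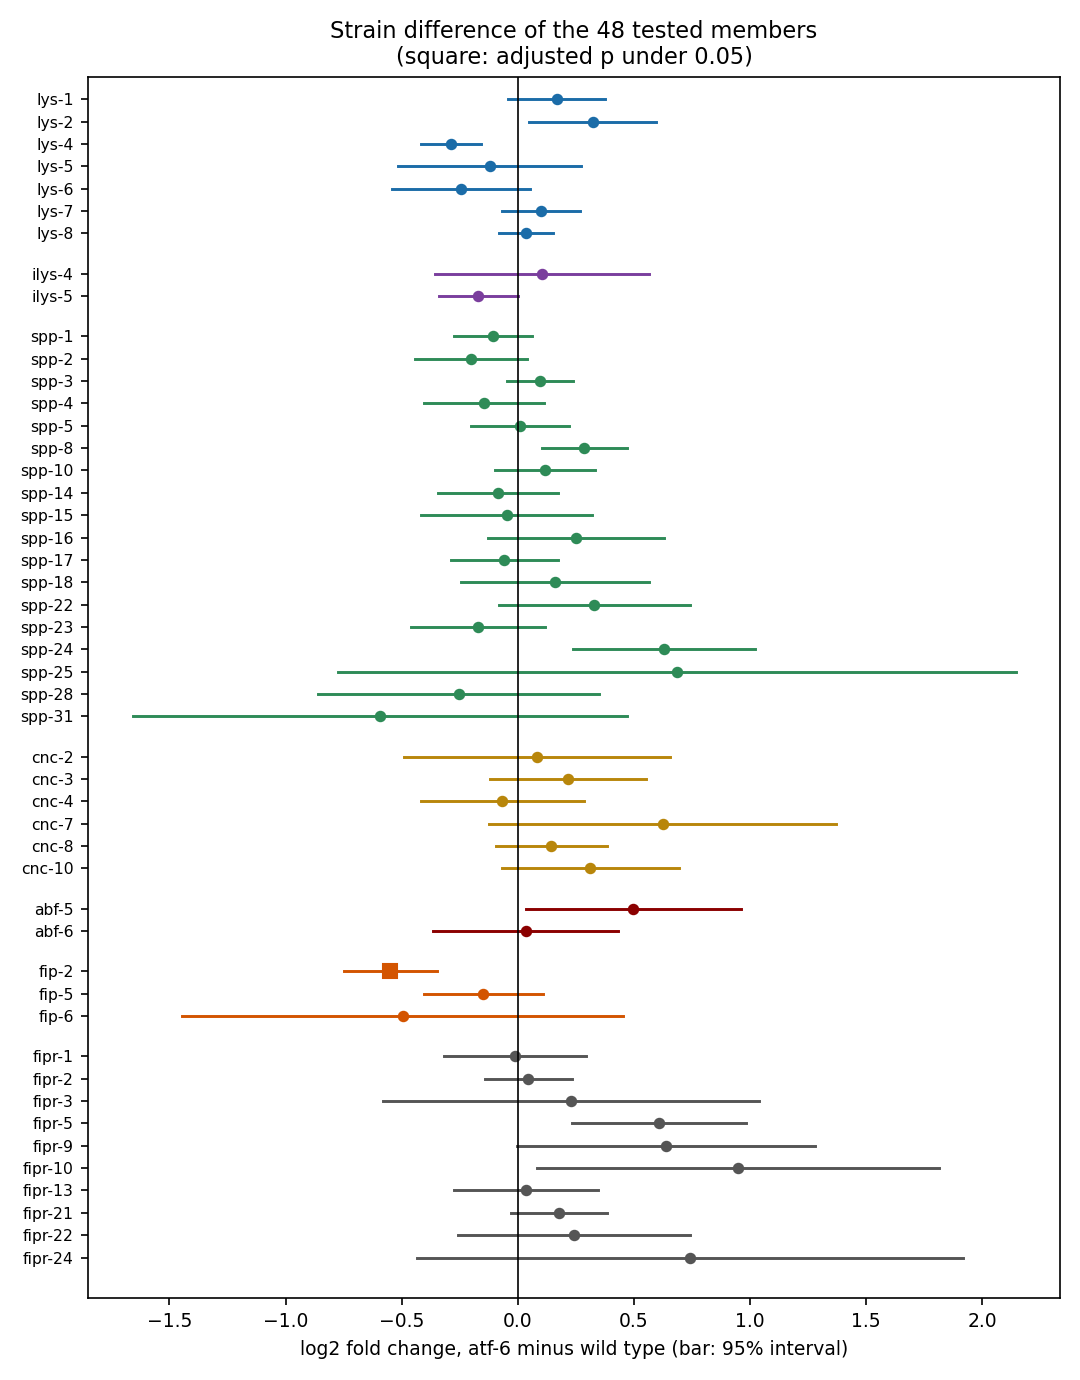
Log2 fold change (atf-6 minus wild type) of the 48 tested members by family, with 95% intervals from the edgeR fit as bars. The square marks fip-2, the only member with an adjusted p under 0.05, and the intervals of 39 members span 0.

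The member that fell was fip-2 (WBGene00020862, chromosome V, 9067978 to 9068390 on the plus strand), by its name a fungus-induced peptide gene. It had 11.9, 10.7, 10.96 and 11.5 CPM in atf-6 libraries, against 14.5, 17.7, 17.1 and 16.4 CPM in wild-type libraries. Every atf-6 library lay below every wild-type library. The gap between the groups was wider than the range within atf-6 but narrower than the range within wild type. The means were 11.3 ± 0.557 CPM in atf-6 and 16.4 ± 1.398 CPM in wild type (SD, n = 4 each). That is 0.683 times the wild-type level, a log2 fold change of -0.55 (SE 0.0907, 95% interval -0.75 to -0.35, edgeR adjusted p = 0.0293). In TPM it had 26.2, 27.9, 33.1 and 34.5 in atf-6, against 42.4, 47.4, 39.2 and 45.5 in wild type, again without overlap. It did not pass when any one of 6 of the 8 libraries was left out (adjusted p 0.0557 to 0.122), those being each atf-6 library and wild-type replicates 2 and 4, and it passed without wild-type replicate 1 (0.0352) or 3 (0.0392). With plain sums of the transcript reads it was just outside the threshold (edgeR adjusted p = 0.0519).

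Its relatives did not pass. fip-5 (chromosome X) had 4.27, 4.49, 3.97 and 4.59 CPM in atf-6 libraries, against 4.33, 4.71, 5.03 and 5.07 CPM in wild-type libraries, with overlap and a log2 fold change of -0.15 (95% interval -0.40 to 0.11). fip-6 had a log2 fold change of -0.50 from 0.221 to 0.670 CPM in atf-6 and 0.255 to 1.08 CPM in wild type, and its 95% interval ran from -1.45 to 0.45. The other 4 fip genes were under the limit for testing, fip-1 and fip-7 with 0 counts in all 8 libraries.

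Among lysozymes, lys-4 was nearest to the threshold. The gene (WBGene00003093, chromosome IV, 11621429 to 11623174 on the minus strand) had 172, 152, 170.3 and 159 CPM in atf-6 libraries, against 194, 198, 206 and 199 CPM in wild-type libraries. The groups did not overlap. In TPM they did, with 143, 149, 194 and 180 in atf-6 libraries, against 214, 199, 178 and 208 in wild-type libraries, where wild-type replicate 3 lay below atf-6 replicates 3 and 4. The log2 fold change was -0.29 (SE 0.0580, 95% interval -0.42 to -0.16), 0.820 times the wild-type level, with an edgeR adjusted p of 0.0560 that missed the threshold. DESeq2 called it (adjusted p = 0.000162), as it did fip-2 (adjusted p = 8.94e-05), and no other member, where DESeq2 called 194 of 13172 genes in all (1.47%). lys-4 lies beside lys-5 and lys-6 within 6.52 kb of chromosome IV. These neighbours had log2 fold changes of -0.12 and -0.24 (95% intervals -0.52 to 0.27 and -0.54 to 0.05) and did not pass.

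A further lys cluster, lys-1 to lys-3, lies within 5.64 kb of chromosome V. Its tested genes lys-1 and lys-2 had log2 fold changes above 0, while lys-3, too low to test, had 1 count in atf-6 and 14 in wild type. lys-1 had 91.7, 103, 118 and 118.6 CPM in atf-6 libraries, against 103, 98.0, 84.7 and 98.8 CPM in wild-type libraries. Replicates 3 and 4 of atf-6 lay above all wild-type libraries and replicates 1 and 2 among them, and the log2 fold change was 0.17 (95% interval -0.041 to 0.37). lys-2 had a log2 fold change of 0.32 (95% interval 0.05 to 0.59, unadjusted p = 0.0251, edgeR adjusted p = 0.548). The level of lys-8 was 83.3 to 90.4 CPM in atf-6 and 84.5 to 84.96 CPM in wild type, with overlap and a log2 fold change of 0.035 (95% interval -0.080 to 0.15). For lys-7, a target of the longevity factor DAF-16, the values were 59.4 to 66.6 CPM in atf-6 and 52.7 to 64.3 CPM in wild type (log2 fold change 0.10, 95% interval -0.068 to 0.27).

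ilys-5, the most abundant of all members, had 639, 629, 588 and 593 CPM in atf-6 libraries, against 625, 691, 767 and 675 CPM in wild-type libraries. Only wild-type replicate 1 fell within the range of atf-6. The log2 fold change was -0.17 (SE 0.0771, 95% interval from -0.34 to just under 0, edgeR adjusted p = 0.710), and it was -0.097 without replicate 3 of both strains. The low-level ilys-4 had 3.39, 2.16, 1.96 and 3.47 CPM in atf-6 libraries, against 2.58, 2.64, 2.61 and 2.30 CPM in wild-type libraries, the atf-6 libraries lying on both sides of wild type.

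**Figure D4:**
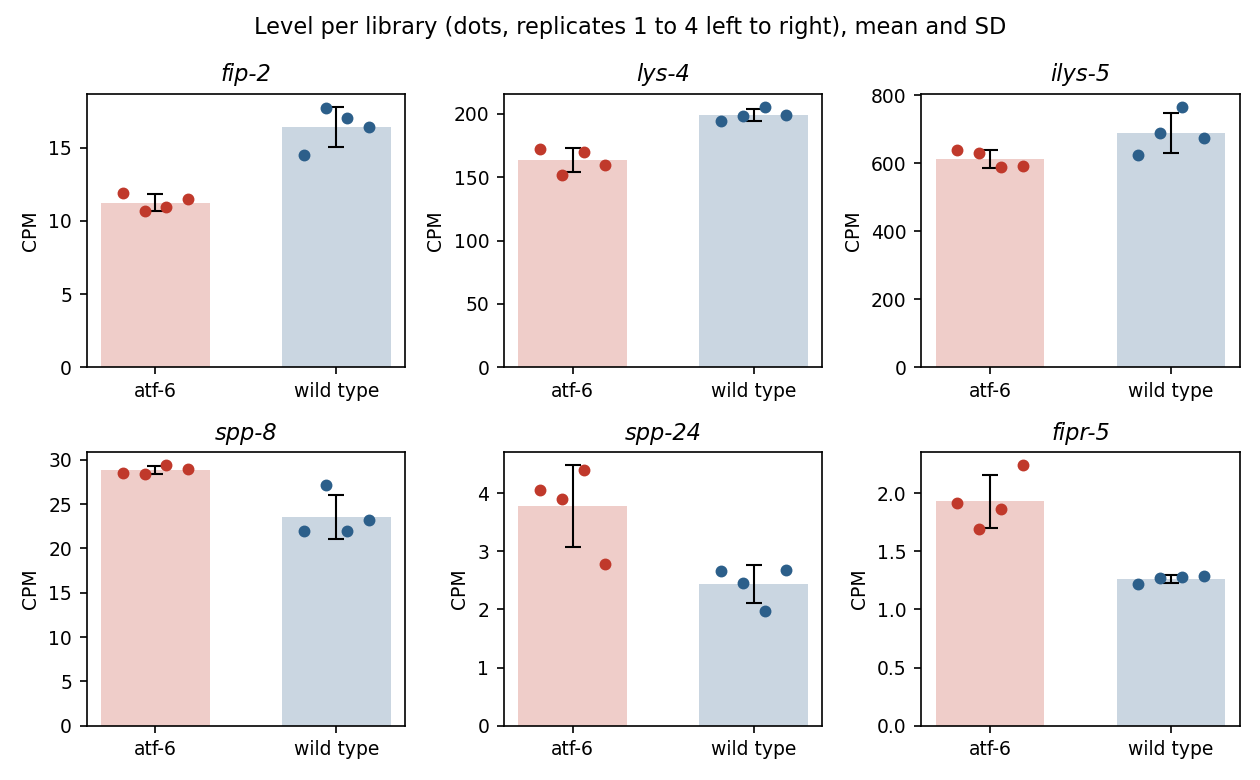
CPM per library (dots, replicates 1 to 4 from left to right), mean (bar) and SD (error bar) of 6 members, atf-6 left and wild type right. In fip-2 and lys-4 all atf-6 libraries lie below wild type, in spp-8, spp-24 and fipr-5 all lie above, and ilys-5 overlaps. The panels include all 5 of the 48 tested members without overlap (10.4%, beside 5.79% of all tested genes).

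Among the saposin-like genes the most abundant had log2 fold changes near 0, and the larger values belonged to genes of lower level. spp-14 had 301, 266, 225 and 239 CPM in atf-6 libraries, against 234, 265, 331 and 264 CPM in wild-type libraries, with a log2 fold change of -0.086 (95% interval -0.34 to 0.17). spp-17 had 293, 254, 238 and 227 CPM in atf-6 libraries, against 233, 256, 312 and 251 CPM in wild-type libraries (log2 fold change -0.058, 95% interval -0.29 to 0.17). In both genes wild-type replicate 3 was the highest library and atf-6 replicate 1 the next. Without replicate 3 of both strains the log2 fold change turned to 0.078 for spp-14 and 0.062 for spp-17. The caenopore genes spp-1, spp-3 and spp-5 had log2 fold changes of -0.11, 0.097 and 0.011, and spp-10 of 0.12. None of them passed.

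Among those with the smallest p were spp-24 and spp-8. spp-24 had 4.05, 3.91, 4.40 and 2.77 CPM in atf-6 libraries, against 2.66, 2.45, 1.97 and 2.67 CPM in wild-type libraries. Its log2 fold change was 0.63 (SE 0.178, 95% interval 0.24 to 1.02, edgeR adjusted p = 0.213). The groups did not overlap, but atf-6 replicate 4 lay close to wild type. spp-8, next to spp-10 on chromosome IV, had 28.5, 28.4, 29.4 and 28.9 CPM in atf-6 libraries, against 21.9, 27.2, 21.98 and 23.3 CPM in wild-type libraries, again without overlap. Its log2 fold change was 0.29 (95% interval 0.10 to 0.47, edgeR adjusted p = 0.231). In the cluster of spp-2 to spp-6 on chromosome X, 4 of 5 genes were tested, and their log2 fold changes ranged from -0.20 to 0.097. The lowest value of the family was that of spp-31, with 0.662, 0.233, 0.431 and 0.587 CPM in atf-6 libraries, against 0.380, 0.329, 1.34 and 0.8293 CPM in wild-type libraries (log2 fold change -0.59, 95% interval -1.66 to 0.47). Wild-type replicate 3 was the highest of these and wild-type replicates 1 and 2 were among the lower ones.

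Caenacins and abf genes gave no call. cnc-8 had 21.6, 19.99, 19.3 and 16.6 CPM in atf-6 libraries, against 17.2, 16, 20.4 and 16.5 CPM in wild-type libraries. The groups overlapped, and the log2 fold change of cnc-8 was 0.14 (95% interval -0.094 to 0.38). cnc-2 had 2.58, 2.39, 2.25 and 1.55 CPM in atf-6 libraries, against 2.20, 2.45, 1.08 and 2.40 CPM in wild-type libraries, wild-type replicate 3 being the lowest. The log2 fold change of cnc-2 was 0.083, and it turned to -0.14 without replicate 3 of both strains. The smallest p of the family belonged to cnc-7, with 0.810, 0.816, 0.622 and 0.480 CPM in atf-6 libraries, against 0.607, 0.565, 0.319 and 0.276 CPM in wild-type libraries (log2 fold change 0.62, 95% interval -0.12 to 1.37, edgeR adjusted p = 0.841). Of the 6 caenacin genes within 7.84 kb of chromosome V, cnc-2, cnc-3 and cnc-4 were tested and cnc-1, cnc-5 and cnc-11 had at most 1 count in any library. abf-5 had 2.06, 2.27, 2.20 and 1.60 CPM in atf-6 libraries, against 0.987, 1.46, 1.78 and 1.47 CPM in wild-type libraries (log2 fold change 0.50, unadjusted p = 0.0376, edgeR adjusted p = 0.644). Its neighbour abf-6 had a log2 fold change of 0.034 (95% interval -0.36 to 0.43).

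In the fipr family the most abundant gene by CPM, fipr-21, had 58.0, 54.4, 52.1 and 43.5 CPM in atf-6 libraries, against 42.6, 46.3, 50.6 and 44.3 CPM in wild-type libraries, with overlap (log2 fold change 0.18, 95% interval -0.030 to 0.39). The level of fipr-2 was 12.3 to 13.99 CPM in atf-6 and 11.9 to 13.3 CPM in wild type (log2 fold change 0.045, 95% interval -0.14 to 0.23). The smallest p belonged to fipr-5, with 1.91, 1.69, 1.87 and 2.24 CPM in atf-6 libraries, against 1.21, 1.27, 1.27 and 1.29 CPM in wild-type libraries. The groups did not overlap, and the log2 fold change of 0.61 (SE 0.170, 95% interval 0.23 to 0.98) had an edgeR adjusted p of 0.203. Its neighbour fipr-9 had a log2 fold change of 0.64 (95% interval just under 0 to 1.28). The 2 genes together, a sum formed after their values were seen, had 3.02, 3.21, 3.59 and 3.47 CPM in atf-6 libraries, against 2.35, 2.45, 1.72 and 2.12 CPM in wild-type libraries. The groups of this sum did not overlap, and no test was run on it.

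Reads that similar copies share may be assigned to either gene, and the members sit close together. Whether any members here share reads was not tested. With a limit of 20 kb between starts, 61 of the 99 genes fell into 21 clusters of 2 to 6 members, and 36 members lie on chromosome V. fipr-10, with the largest positive value of the tested members (log2 fold change 0.95, 95% interval 0.08 to 1.81, edgeR adjusted p = 0.625), lies 8.68 kb from end to end with fipr-11, which ran the other way with 25 counts in atf-6 and 38 in wild type. The sum of these 2 genes was also formed after their values were seen. Together they had 0.810, 0.933, 1.10 and 1.23 CPM in atf-6 libraries, against 1.14, 0.706, 0.956 and 0.8293 CPM in wild-type libraries. The sum overlapped between the strains, and no test was run on it. One cluster on chromosome X mixes 3 families, fip-5, fipr-21 and cnc-8 within 4.21 kb, and their log2 fold changes were -0.15, 0.18 and 0.14.

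The other 51 members were not tested. Of these 17 had 0 counts in all 8 libraries. Scaled to total counts without TMM factors, 3 counts would be 0.155 to 0.210 CPM in atf-6 libraries and 0.138 to 0.237 CPM in wild-type libraries. A further 19 had 1 to 9 counts over all libraries, and none of the 51 exceeded 1.07 CPM in any library. Of the 15 with at least 10 counts, lys-3 and fipr-6 had the lowest ratios, and both were picked after their values were seen. lys-3, the third gene of the lys-1 cluster, had 0, 0, 0 and 1 counts in atf-6 libraries, against 5, 6, 1 and 2 counts in wild-type libraries, a ratio of 0.0729 with an exact interval of 0.00172 to 0.479. fipr-6 had 0, 2, 0 and 0 counts in atf-6 libraries, against 3, 4, 5 and 8 counts in wild-type libraries, a ratio of 0.102 with an exact interval of 0.0116 to 0.420. These intervals cover counting error only. In an edgeR fit with no filter on low counts both had unadjusted p under 0.05, but neither passed (adjusted p = 0.288 for lys-3 and 0.186 for fipr-6).

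Single libraries stood at the ends of the range of many members. Wild-type replicate 3 held the highest level of 11 of the 48 tested members (22.9%) and the lowest of 12 (25%), close to its shares of 24.2% and 22.9% among all tested genes. The saposin-like genes were split by it, with 7 of 18 at their highest and 7 at their lowest there. At the high side were the abundant spp-14 and spp-17 above, and spp-4 with 26.9, 28.97, 23.97 and 22.6 CPM in atf-6 libraries, against 24.4, 28.3, 34.1 and 26.2 CPM in wild-type libraries. On the low side was spp-18, with 10.1, 9.33, 12.6 and 12.2 CPM in atf-6 libraries, against 10.6, 11.9, 6.24 and 10.7 CPM in wild-type libraries. The gene with the largest SE of all tested members was spp-25, with 0.368, 0.466, 2.87 and 1.28 CPM in atf-6 libraries, against 1.82, 0.518, 0.255 and 0.8293 CPM in wild-type libraries. For spp-25, whose log2 fold change was 0.68, the 95% interval ran from -0.78 to 2.14.

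**Figure D5:**
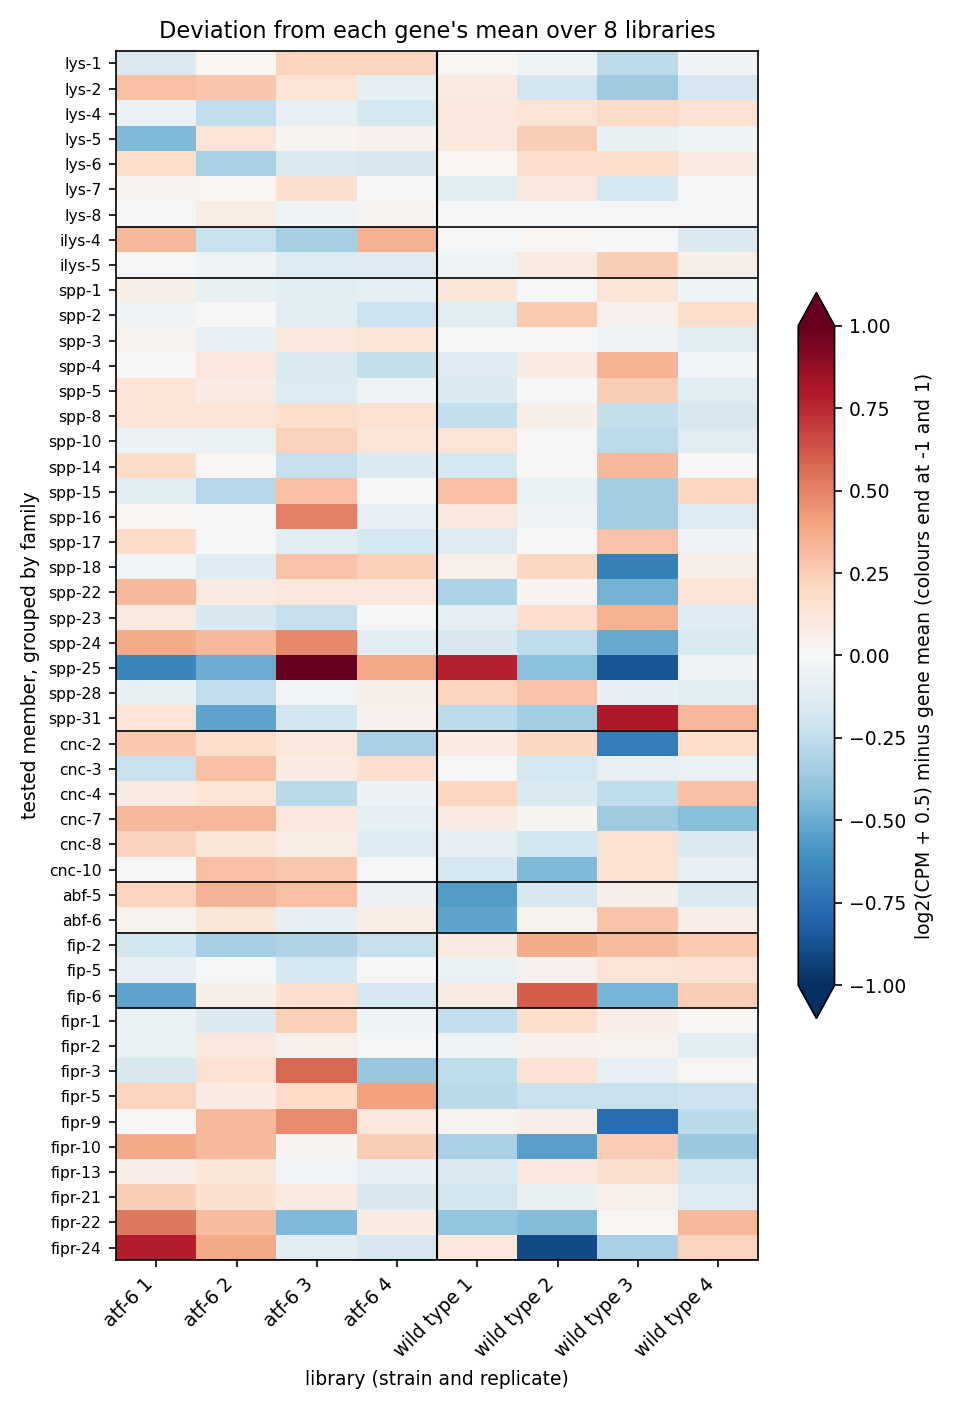
Deviation of each tested member from its own mean over 8 libraries on the log2(CPM + 0.5) scale, atf-6 libraries left of the line and wild type right, families separated by lines. fip-2 is low in all atf-6 libraries, while the spp rows show opposite colours in wild-type replicate 3.

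A surrogate variable, a covariate estimated from the expression of all genes, had atf-6 replicate 3 (-0.525) and wild-type replicate 3 (0.583) at its ends. With it in the edgeR model, the calls over all tested genes went from 101 to 326 (265 higher, 61 lower). Of the 48 tested members 3 passed, all lower in atf-6. These were fip-2 (adjusted p = 0.00114), lys-4 (0.000961) and ilys-5 (0.0341, log2 fold change -0.14). Since the variable was estimated from these libraries but entered as if measured, those p-values may be too low. Without the libraries at both of its ends, an alternative chosen after seeing the data, 0 members passed with edgeR, and fip-2 had an adjusted p of 0.0611 and a log2 fold change of -0.52. When single libraries were left out, 0 members passed in 6 of 8 fits.

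More than 1 transcript is listed for 14 members. Of these, ilys-5 had 97.3% of its TPM in a transcript of 443 bases. The 548-base transcript of ilys-5 had 20.8, 38.3, 41.1 and 35.6 TPM in atf-6 libraries, against 48.97, 44.6, 9.72 and 48 TPM in wild-type libraries. For fipr-2 the transcript of 393 bases had 2.90, 7.11, 13.2 and 8.68 TPM in atf-6 libraries, against 10.5, 15.8, 1.04 and 7.83 TPM in wild-type libraries. Both of these minor transcripts were lowest in wild-type replicate 3 and, within atf-6, in replicate 1. The minor transcript of spp-14, of 385 bases, was instead highest in wild-type replicate 3, at 110 TPM. No test was made at this level.

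Genes listed as immune regulators gave no call, a list that shares irg-1 and mul-1 with the infection response genes below. Of 58 tested genes in a list of immune regulators, 0 rose and 0 fell with edgeR (0.816% of all tested genes were called), 2 (3.45%) had an unadjusted p under 0.05, beside 7.0% of all tested genes, and the median log2 fold change was 0.013. The smallest p-values belonged to zip-2, a bZIP factor of the response to blocked translation (log2 fold change 0.21, SE 0.0598, adjusted p = 0.227), nsy-1, the MAP kinase kinase kinase at the top of the p38 pathway (0.17, SE 0.0673, adjusted p = 0.583), and cebp-1, a C/EBP factor (0.35, SE 0.163, adjusted p = 0.744). The p38 kinase gene pmk-1 had a log2 fold change of -0.027 (SE 0.153), the intestinal GATA factor gene elt-2 of 0.17 (SE 0.0996) and daf-16 of 0.026 (SE 0.0480). Of 22 tested infection response genes outside the 7 families 0 passed and 6 (27.3%) had an unadjusted p under 0.05, with a median log2 fold change of 0.13. Of 9 tested genes of the nlp-29 group, epidermal antimicrobial peptides that respond to fungus as the caenacins do, 0 passed and 3 (33.3%) had an unadjusted p under 0.05. In lists of this size the overall share of calls gives few or none, so 0 calls says little about them. The median of the nlp-29 group was 0.20 and its sum 232 to 270 CPM in atf-6, against 198 to 254 CPM in wild type.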

How the data were processed

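Poly(A) RNA was made into stranded TruSeq libraries and read on a NextSeq500, per the labels' protocols. Build WBcel235, DESeq2 1.19.51, STAR 2.5.3a and Salmon 0.9.1 are listed, without roles, in the submitters' processing notes. Use of strand in counting is not stated in the sources used here. The authors deposited a gene table of estimated counts, in whole numbers and not normalized. They also deposited a normalized signal, which equals those counts divided by 1 constant per library and served only as a check. The deposited file of each sample gives TPM and estimated counts per transcript, per the file headers; 57835 of 58105 transcripts were matched to genes of the Ensembl release 115 annotation, which also gave positions. Table columns were tied to samples by the number in each sample's own file. Symbols came from a gene name table that covers 43540 of 46093 identifiers.

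Counts were tested in R 4.3.3 with edgeR 4.0.16: filterByExpr, TMM normalization, robust quasi-likelihood fit on strain, a two-sided quasi-likelihood F-test, and p-values adjusted by Benjamini-Hochberg over 12375 genes, threshold 0.05. Each SE was taken as the size of the log2 fold change over the root of F. The SD of a mean covers 4 libraries. The lowest chi-square per degree of freedom between libraries of a strain was 3.75, so none agreed within sampling noise. On counts simulated from these 8 libraries (12375 genes, 200 changed), the fit recovered 58%, 90%, 96% and 96% of 1.5-, 2-, 3- and 4-fold changes. Every simulated gene had the same dispersion (biological coefficient of variation 0.116), and libraries differed only in size. Recovery may be lower for members with a wider spread or few counts. Alternatives used DESeq2 1.42.0, limma 3.58.1 and sva 3.50.0. The members and gene lists were chosen with earlier results of these data known. Genes were named as follows: every member past the threshold, and in each family the 2 highest by TPM and the one with the smallest p, with values per library for the leading and the smallest-p gene; of the regulators, the 3 smallest p where none passed. Other genes were named after their values were seen. Of 63, 38, 11, 29, 22, 24 and 42 entries in the regulator, infection response, nlp-29, intestine, epidermis, pharynx and sperm lists, 63, 33, 11, 28, 22, 23 and 40 genes were found. Protein features and promoter motifs were not analysed here.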

Additional observations from a re-analysis of the deposited data

Results flagged for a closer look

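In 58 groups of 4 libraries (the named genes and the family sums), 1 library stood far from the others in 2 groups, where chance gives about 1 in 20. The cnc family sum in wild type was 34.4, 30.5, 34.7 and 34.2 CPM, replicate 2 lying apart by a gap of 0.897 of the range. ilys-4 in wild type had 2.58, 2.64, 2.61 and 2.30 CPM, replicate 4 lying apart by 0.836 of the range.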

How the results depend on the processing

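The call of fip-2, the only member past the threshold, held under RLE and upper-quartile normalization, without a filter on low counts, with at least 10 counts in 4 libraries and with limma-voom. The number of members past the threshold, all lower, was 3 with 1 surrogate variable, 2 with DESeq2 and 0 with plain transcript read sums, at a threshold of 0.01, with the replicate block or without both libraries at the ends of the surrogate variable. Leaving out single libraries gave 0 to 1, and no member was called higher in any of these fits. The adjusted p of fip-2 ranged from 8.94e-05 to 0.352 over the alternatives, and that of lys-4 from 0.000162 to 0.428. Over all genes the count was 39 (30 higher) with plain read sums, 326 (265 higher, 61 lower) with 1 surrogate variable, 194 (163 higher, 31 lower) with DESeq2 and 15 (11 higher, 4 lower) at 0.01. It was 16 to 107 (12 to 92 higher, 4 to 15 lower) with 1 library left out, and 20 were lower without a filter. The deviations of same-numbered libraries correlated by -0.385, -0.0446, -0.407 and 0.043, and 0 of 4 atf-6 libraries matched their own number best. These values showed no pairing by number, but with 4 libraries per strain they cannot exclude that same-numbered libraries were prepared together. The replicate block gave 4 genes (3 higher, 1 lower) and 0 members.

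Without its most abundant gene, the ratio of the atf-6 to the wild-type sum became 1.08 for lys, 1.10 for ilys and 0.892 for fip. Without a filter on low counts the median log2 fold change became 0.045 for spp, -0.16 for fip and 0.41 for fipr. With 1 library left out it ranged from -0.031 to 0.026 for spp, -0.54 to -0.16 for fip, 0.12 to 0.36 for fipr, -0.098 to 0.046 for ilys, 0.13 to 0.38 for abf, 0.031 to 0.074 for lys and 0.13 to 0.22 for cnc. Without both libraries at the ends of the surrogate variable the log2 fold change turned to 0.078 for spp-14, 0.062 for spp-17 and -0.14 for cnc-2. With 1 library left out it changed sign for ilys-4 (-0.039 to 0.24), spp-14 (-0.17 to 0.018), spp-17 (-0.13 to 0.034), cnc-2 (-0.12 to 0.22) and abf-6 (-0.11 to 0.15). The causes were not tested. The 51 members that were not tested have too few counts for a call, and TPM of transcripts with an effective length under 50 bases is uncertain.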
